A study of Mus musculus with 20 samples.

Results

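The 10 genes described here are the transcription factors Tfeb, Tfe3 and Mitf, the Rag GTPases Rragc and Rragd, the folliculin complex genes Flcn, Fnip1 and Fnip2, and the lysosomal stress genes Gpnmb and Sqstm1. They were chosen by name, as genes of 1 signalling route to the lysosome, with earlier results of these data known. They are 10 of the 32285 genes in the table. All 10 passed the filter on low values, as did 12350 genes in all. RNA was measured in 20 libraries of cultured, immortalised primary cancer-associated fibroblasts (CAFs) of the mouse, the stromal cells of a tumour, in a study of pancreatic cancer. A group of 5 libraries came from cells in 0.2 mM glutamine with 25 uM EIPA, and 5 came from cells in 0.2 mM glutamine with the DMSO vehicle. Another 5 came from cells in 4 mM glutamine with IL-1a at 25 pg/mL and DMSO, and the last 5 from cells in 4 mM glutamine with DMSO alone. Per the protocol, which is shared by the 4 groups, DMSO was present in all of them, EIPA included, and treatments lasted 32 h. EIPA is an amiloride derivative that blocks sodium-proton exchangers and is used to stop macropinocytosis, by which cells drink in fluid and digest it in lysosomes. IL-1a is a cytokine that drives an inflammatory state in CAFs. The protocol text states the EIPA dose in mM, whereas the titles state it in uM, and the dose of the titles is given here. The labels name no driver line, clone or tumour of origin, and they do not say whether replicates were separate cultures, so p-values measure the spread between these libraries, which may be technical.

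Tfeb, Tfe3 and Mitf belong to the MiT/TFE family of transcription factors, which bind E-box motifs and switch on genes of lysosomes and autophagy. When amino acids are plentiful, the Rag GTPases recruit the kinase mTORC1 to the lysosome, where it phosphorylates these factors and keeps them in the cytoplasm. The folliculin complex, made of folliculin and either of its partners Fnip1 and Fnip2, activates RagC and RagD by promoting GTP hydrolysis, a step needed for the phosphorylation of Tfeb and Tfe3. Starvation, lysosome damage or loss of folliculin lets the factors enter the nucleus, and Rragd, Flcn, Fnip1, Fnip2, Gpnmb and Sqstm1 are among the genes that they are known to induce. Their activity is set largely by location and phosphorylation, which RNA levels do not measure.

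Levels are in TPM, a transcript abundance per length scaled to a fixed total, which the authors computed with RSEM. Differences were tested on log2(TPM + 1) with limma across all 12350 genes, and a gene is said to rise or fall only when called at an adjusted p under 0.05. Between 11749 and 12045 genes reached 1 TPM per library. In the group of 0.2 mM glutamine with vehicle, replicate 5 stood apart, with a root mean square deviation from its group of 0.234 (log2) against 0.128 to 0.146 in the other 4. At 4 mM, vehicle replicate 5 had 0.215 against 0.131 to 0.148 in the rest of its group. IL-1a replicate 1 had 0.237 against 0.159 to 0.196, and the EIPA libraries had 0.143 to 0.192. IL-1a replicates 1 and 5 and vehicle replicate 5 at 4 mM had 201, 235 and 231 TPM of Ccn1, a matrix-associated protein, against 379 to 599 TPM in the other 7 libraries at 4 mM. Mitochondrially encoded mRNAs took 5.18% to 6.78% of TPM with EIPA and 8.55% to 9.24% with vehicle at 0.2 mM. They took 9.14% to 10.4% with IL-1a and 9.30% to 12.3% with vehicle at 4 mM. The fibroblast markers were expressed, 8 of 9 averaging 1 TPM or more in every group, while Fap averaged 0.0505 TPM. Their summed level was 2123 to 2390 TPM with EIPA, 3296 to 3892 TPM with vehicle at 0.2 mM, 7247 to 8938 TPM with IL-1a and 8460 to 9247 TPM with vehicle at 4 mM. The sum does not speak for each marker. Of the 8 that were tested, 3 were called higher with EIPA, 4 lower and 1 was not called. Pdgfra averaged 14.8 TPM with EIPA and 6.15 TPM with vehicle at 0.2 mM, and Pdpn 204 and 95.8 TPM, while Col1a1 averaged 262 and 675 TPM. The 6 epithelial markers summed to 88.5 to 120 TPM with EIPA, 133 to 206 TPM with vehicle at 0.2 mM, 167 to 362 TPM with IL-1a and 186 to 397 TPM with vehicle at 4 mM. Most of that was the keratin Krt19 (mean 176 TPM), while the defining marker Epcam reached at most 0.360 TPM and Cldn4 at most 0.0400 TPM. The part of these shifts in the results was not tested, apart from the fits without the mitochondrial genes or without single libraries.

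At 0.2 mM glutamine, EIPA was set against its vehicle, which asks what the inhibitor changes in cells short of glutamine. Macropinocytosis itself is not measured by these RNA levels. Gpnmb rose 3.15-fold in mean TPM and Rragd 1.98-fold, while Tfeb fell to 0.708 of its vehicle level. Rragc, Flcn, Fnip1, Fnip2 and Sqstm1 rose by smaller steps, 1.17-fold to 1.28-fold, and Tfe3 and Mitf did not pass the test. In all, 7 of the 10 genes were higher and 1 was lower, where 48.5% of all tested genes were called (27.4% higher, 21.1% lower). The EIPA and vehicle libraries did not overlap for 3 of the 10 genes, Gpnmb, Rragd and Tfeb, against 34.6% of all genes. The median change of the 10 genes was 0.29 (log2), and that of all tested genes 0.02. In these bulk libraries, fewer cells of a type and less RNA per cell cannot be told apart. The share of higher genes among those called was 56.5%, but 49.5% under median-of-ratios scaling and 47.0% with the mitochondrial genes left out, and the same 8 of the 10 genes were called in each.

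Low glutamine was compared with high glutamine in vehicle, 0.2 mM against 4 mM. Rragd stood 31.0-fold higher in mean TPM at 0.2 mM, Gpnmb 2.58-fold, Flcn 2.45-fold, Fnip2 2.28-fold and Fnip1 2.03-fold. Sqstm1 averaged 1839 ± 301 TPM at 0.2 mM and 613 ± 51.3 TPM at 4 mM (SD, n = 5 each). Of the 10 genes, 9 were called higher and 0 lower, with Tfeb not called, but 73.3% of all tested genes were called here (45.4% higher, 27.9% lower). The groups did not overlap for 7 of the 10 genes, against 59.9% of all genes. The median gene was itself 0.14 higher (log2) at 0.2 mM, so changes with glutamine are given below relative to it, while calls are those of the unshifted values. Relative to the median gene, the median of the 10 genes was 0.92. Under median-of-ratios scaling, 49.7% of the called genes were higher in place of 61.9%, Tfe3 lost its call, and 8 of the 10 genes were called. The vehicle libraries at 0.2 mM serve in both this comparison and that of EIPA, so the 2 sets of changes are not independent.

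IL-1a was compared with vehicle at 4 mM glutamine. None of the 10 genes was called by limma (0 of 10), 1 had an unadjusted p under 0.05, and for 0 of 10 did the groups not overlap. Few genes were called in this comparison at all, 0.283% of those tested, and 1.38% did not overlap, while 744 genes had an unadjusted p under 0.05.

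**Figure D1:**
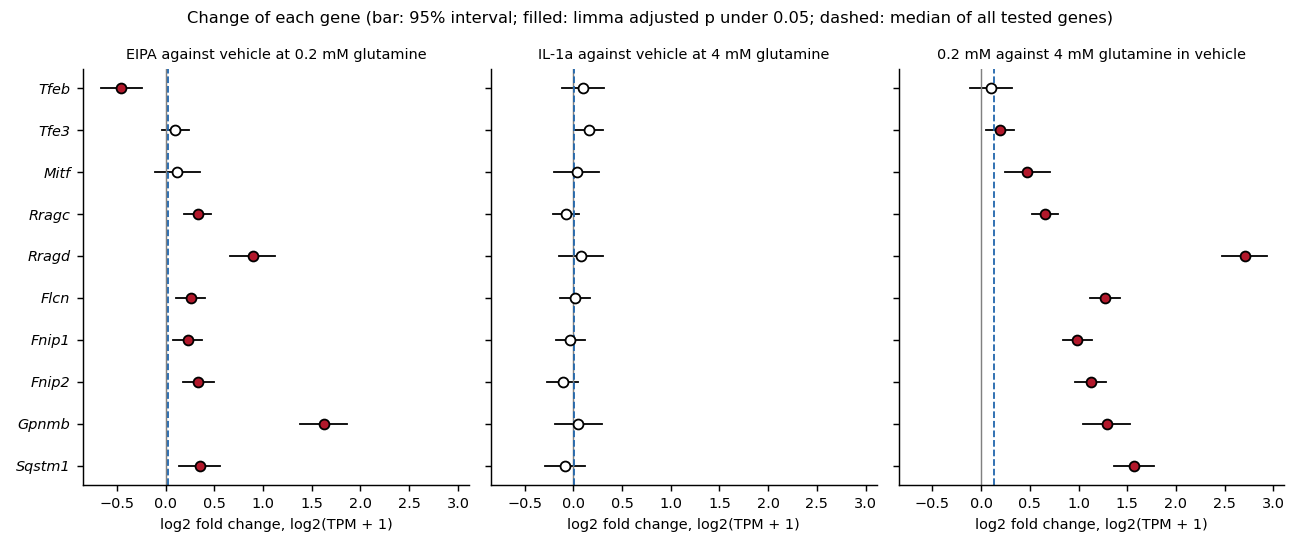
Log2 fold change of each gene, on log2(TPM + 1), in 3 panels, EIPA over vehicle in 0.2 mM glutamine, IL-1a over vehicle in 4 mM glutamine, and 0.2 mM over 4 mM glutamine in vehicle, with 95% intervals, filled where called by limma and with the median of all tested genes dashed. Gpnmb (1.62) leads with EIPA and Rragd (2.70, unshifted) with low glutamine, Tfeb (-0.45) is the gene called lower with EIPA, and Tfeb (0.10) with low glutamine changes sign under median-of-ratios scaling (-0.03).

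Among the transcription factors, Tfeb, which drives lysosome biogenesis, had 9.38, 9.96, 9.37, 7.37 and 9.88 TPM in the 5 EIPA libraries, against 12.2, 12.4, 12.6, 11.4 and 16.5 TPM with vehicle at 0.2 mM. All EIPA libraries lay below all vehicle libraries, with EIPA replicate 4 lowest and vehicle replicate 5 highest. The change was -0.45 ± 0.10 (log2, SE; limma adjusted p = 0.00115), and -0.37 (limma adjusted p = 0.00386) without vehicle replicate 5. It ranked 1002 from the lowest of 12350 genes. At 4 mM glutamine, Tfeb had 16.0, 10.6, 11.9, 13.5 and 12.5 TPM with IL-1a and 12.3, 10.9, 13.0, 11.5 and 11.9 TPM with vehicle. These 4 mM libraries overlapped each other and the vehicle libraries at 0.2 mM, so EIPA alone stood apart for this gene. Between the glutamine levels in vehicle, Tfeb differed by -0.03 ± 0.10 relative to the median gene (limma adjusted p of the unshifted value = 0.367). In mm10, Tfeb (ENSMUSG00000023990) spans bases 47737030 to 47792419 of chromosome 17, plus strand.

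Tfe3, the family member that acts beside Tfeb on lysosomal genes, was the most abundant of the 3 factors in TPM. It averaged 72.8 ± 2.22 TPM with EIPA and 68.1 ± 6.95 TPM with vehicle at 0.2 mM glutamine (SD, n = 5 each), and 66.3 ± 6.55 TPM with IL-1a and 59.1 ± 3.29 TPM with vehicle at 4 mM. Each neighbouring pair in this order of groups overlapped. The EIPA difference was 0.10 ± 0.07 (limma adjusted p = 0.228), with a 95% interval of -0.04 to 0.24. Between the glutamine levels Tfe3 was called, at 0.06 ± 0.07 relative to the median gene (0.20 unshifted, limma adjusted p = 0.0136), but not under median-of-ratios scaling (0.05, limma adjusted p = 0.500). With IL-1a it differed by 0.16 ± 0.07 (limma adjusted p = 0.716, unadjusted p = 0.0293), and by 0.11 without the 3 low-Ccn1 libraries (limma adjusted p = 0.987). The Tfe3 gene (ENSMUSG00000000134) spans bases 7762560 to 7775202 of chromosome X in mm10, plus strand.

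Mitf, best known as the master regulator of melanocytes, was the least abundant of the 3. It averaged 1.57 ± 0.225 TPM with EIPA and 1.37 ± 0.285 TPM with vehicle at 0.2 mM glutamine, and 0.740 ± 0.125 TPM with IL-1a and 0.708 ± 0.241 TPM with vehicle at 4 mM (SD, n = 5 each). It rose with low glutamine by 0.34 ± 0.11 relative to the median gene (limma adjusted p of the unshifted value = 0.000634), 1.94-fold in mean TPM, with the lowest library at 0.2 mM (0.920 TPM) below the highest at 4 mM (1.11 TPM). With EIPA it differed by 0.12 ± 0.11 (limma adjusted p = 0.400). The 6 melanocyte markers summed to 0.650 to 0.840 TPM with EIPA, 0.450 to 1.79 TPM with vehicle at 0.2 mM, 0.550 to 1.17 TPM with IL-1a and 0.440 to 1.25 TPM with vehicle at 4 mM. Most of this was Pmel (mean 0.742 TPM), and Tyr, Dct and Sox10 were listed at 0 in all libraries. In mm10, Mitf (ENSMUSG00000035158) spans bases 97807052 to 98021349 of chromosome 6, plus strand. The other member of the family, Tfec, was listed at 0 in every library but EIPA replicate 4, which had 0.04 TPM.

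Summed over Tfeb, Tfe3 and Mitf, the family stood at 83.6 ± 2.61 TPM with EIPA and 82.4 ± 5.47 TPM with vehicle at 0.2 mM glutamine (SD, n = 5 each). Tfeb made up 11.0% ± 1.11 of that sum with EIPA and 15.9% ± 3.38 with vehicle, and its share of 9.06% to 11.9% in the EIPA libraries lay below the 12.7% to 21.5% of the vehicle libraries. Tfe3 made up 87.1% ± 1.29 with EIPA and 82.4% ± 3.22 with vehicle. At 4 mM, the Tfeb share was 16.1% ± 1.01 with IL-1a and 16.6% ± 0.652 with vehicle. The summed levels of the EIPA and vehicle libraries at 0.2 mM thus overlapped, whereas their Tfeb shares did not.

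**Figure D2:**
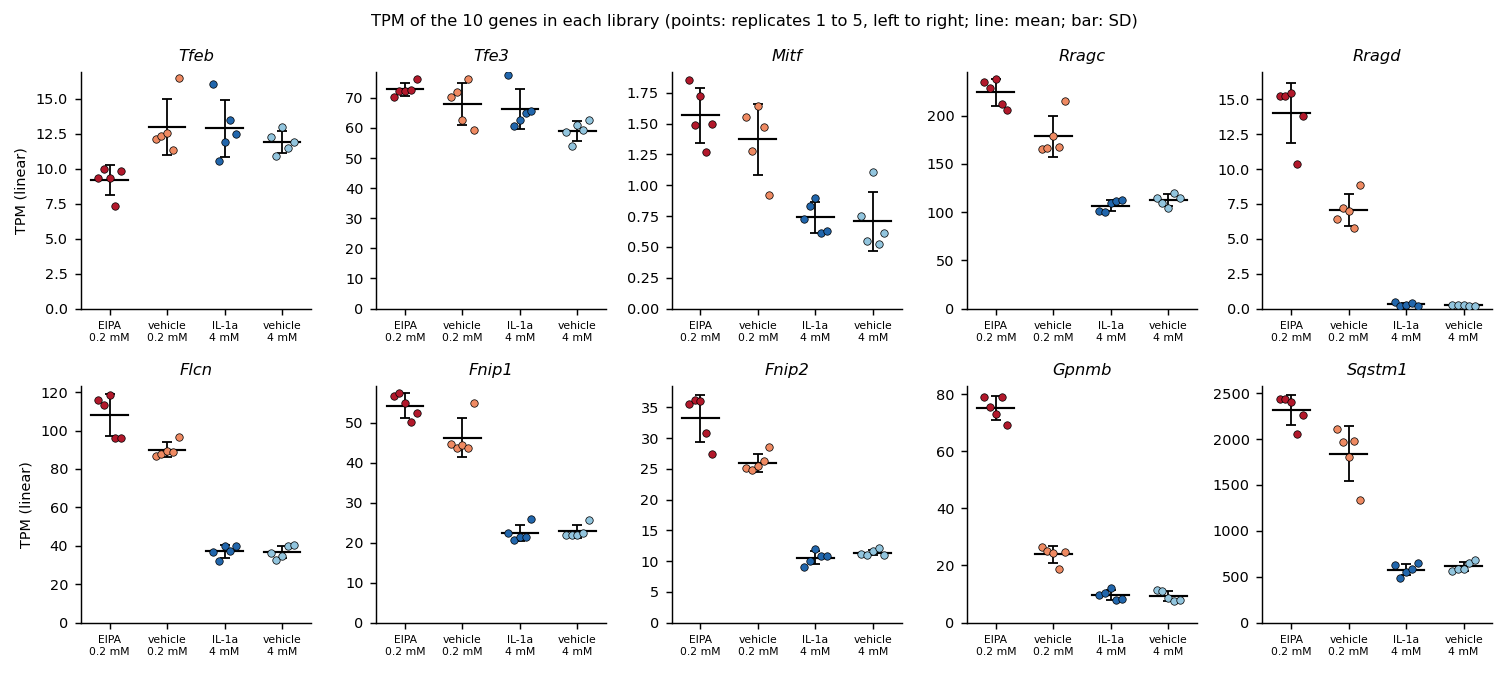
TPM of each of the 10 genes (linear axes) in the 5 libraries of each group, with replicates 1 to 5 from left to right in a group, the mean as a line and the SD as a bar. The EIPA libraries lie above all others for Gpnmb and Rragd and below all others for Tfeb, and the 4 mM groups with IL-1a and vehicle overlap for every gene.

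Of the GTPases, Rragd, which encodes RagD and is a known target of the MiT/TFE factors, had the widest range of levels of the 10 genes relative to its lowest. It had 15.2, 15.2, 15.5, 10.3 and 13.8 TPM in the EIPA libraries, against 6.39, 7.24, 7.03, 5.79 and 8.86 TPM with vehicle at 0.2 mM glutamine. At 4 mM it had 0.450, 0.190, 0.260, 0.400 and 0.200 TPM with IL-1a and 0.260, 0.260, 0.230, 0.190 and 0.200 TPM with vehicle. The EIPA libraries were all above the vehicle libraries at 0.2 mM, and these were all above both 4 mM groups, which overlapped. Rragd rose with EIPA by 0.90 ± 0.11 (log2, SE; limma adjusted p = 1.29e-06), rank 306 from the highest of 12350 genes. It rose with low glutamine by 2.57 ± 0.11 relative to the median gene (limma adjusted p of the unshifted value = 2.32e-14), and the unshifted change ranked 12 from the highest. Because 1 TPM was added to levels near 0.2 TPM, this understates the ratio: with 0.1 TPM added, the unshifted change was 4.44. The sequencing depth is unknown, so the number of reads behind the 4 mM levels is too. The Rragd gene (ENSMUSG00000028278) spans bases 32983037 to 33022180 of chromosome 4 in mm10, plus strand.

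Rragc, which encodes the paralogue RagC, was the more abundant of the pair in every library. It had 235, 229, 239, 212 and 206 TPM with EIPA, against 166, 166, 179, 168 and 215 TPM with vehicle at 0.2 mM glutamine. The groups overlapped through vehicle replicate 5 alone, the highest of its group, since the other 4 reached at most 179 TPM. Rragc rose with EIPA by 0.33 ± 0.07 (limma adjusted p = 0.000319), and by 0.40 without that library (limma adjusted p = 6.1e-06). At 4 mM it had 101, 99.9, 109, 111 and 113 TPM with IL-1a and 115, 110, 104, 120 and 115 TPM with vehicle, all below every library at 0.2 mM. The rise with low glutamine was 0.52 ± 0.07 relative to the median gene (limma adjusted p of the unshifted value = 1.49e-08). RagD transcripts made up 5.87% ± 0.691 of the summed TPM of the pair with EIPA and 3.79% ± 0.312 with vehicle at 0.2 mM (SD, n = 5 each). At 4 mM that share was 0.281% ± 0.116 with IL-1a and 0.203% ± 0.0347 with vehicle. In mm10, Rragc (ENSMUSG00000028646) spans bases 123917446 to 123936997 of chromosome 4, plus strand. It shares 264 exon bases with 4930535I16Rik on the other strand, a gene with no row in the table.

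Promoter sequence was set beside these changes because 8 of the 10 genes rose with low glutamine by at least 0.34 (log2) more than the median gene. All 10 genes matched RefSeq promoter windows (GRCm38.p6) of 250 bases before to 50 after a start, with 3 windows each for Tfeb and Mitf, 2 for Tfe3 and 1 for each other gene. They were searched on both strands for the E-box core CACGTG, its extension TCACGTG (read as CACGTGA on the other strand, and so always containing the core), the M-box form TCATGTG, the full CLEAR palindrome and the antioxidant response core TGACNNNGC bound by NRF2. Of 32851 windows of the same length, 7.15% held CACGTG, 3.77% TCACGTG, 3.77% TCATGTG, 0.326% the CLEAR palindrome and 12.4% TGACNNNGC. The E-box core was found for Rragc, at -112 from the start, and Fnip1, at -75, in both cases as CACGTGA. The antioxidant core was found for Fnip2, at -111, and in window 2 of Mitf, at -241 and -16. No window of the other members held any of the 5 motifs, the Rragd and Gpnmb windows included. The 250 upstream bases of the windows with the E-box, and of Rragd and Gpnmb as the 2 of the 10 that changed most with EIPA, read as follows, 5′ to 3′ on the strand of the gene, with the E-box match in capitals. A match describes the letters and not binding.
Rragc, chr4:123917183-123917432, plus strand: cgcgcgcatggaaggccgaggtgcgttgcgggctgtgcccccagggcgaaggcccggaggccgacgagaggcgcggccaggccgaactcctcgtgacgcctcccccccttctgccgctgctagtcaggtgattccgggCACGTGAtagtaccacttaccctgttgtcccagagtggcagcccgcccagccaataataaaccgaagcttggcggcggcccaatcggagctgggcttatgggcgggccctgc
Fnip1, chr11:54437929-54438178, plus strand: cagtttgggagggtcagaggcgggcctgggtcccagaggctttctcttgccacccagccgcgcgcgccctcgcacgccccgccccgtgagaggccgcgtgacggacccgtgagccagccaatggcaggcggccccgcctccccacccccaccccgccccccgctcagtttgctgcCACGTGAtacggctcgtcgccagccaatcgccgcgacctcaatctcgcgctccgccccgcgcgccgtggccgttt
Rragd, chr4:32982748-32982997, plus strand: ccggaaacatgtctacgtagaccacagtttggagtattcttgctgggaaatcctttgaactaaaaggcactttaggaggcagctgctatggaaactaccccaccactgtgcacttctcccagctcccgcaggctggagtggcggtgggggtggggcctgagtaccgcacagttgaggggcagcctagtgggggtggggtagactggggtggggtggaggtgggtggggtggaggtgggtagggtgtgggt
Gpnmb, chr6:49036268-49036517, plus strand: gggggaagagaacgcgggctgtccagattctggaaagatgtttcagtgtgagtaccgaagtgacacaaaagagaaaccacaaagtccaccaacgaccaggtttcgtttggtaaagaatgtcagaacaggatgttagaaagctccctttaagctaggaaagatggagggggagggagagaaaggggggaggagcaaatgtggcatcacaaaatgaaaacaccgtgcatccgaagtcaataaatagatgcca

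**Figure D3:**
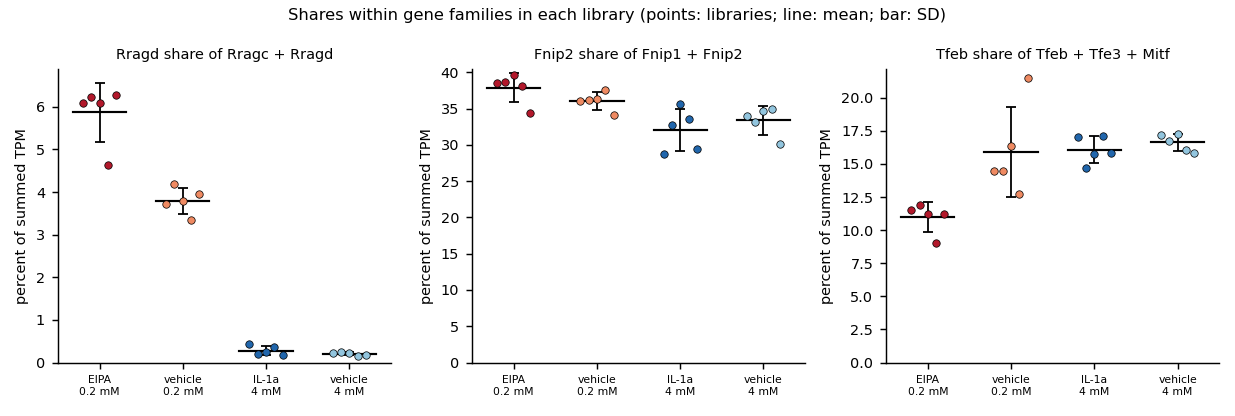
Share of Rragd in the summed TPM of Rragc and Rragd, of Fnip2 in that of Fnip1 and Fnip2, and of Tfeb in that of Tfeb, Tfe3 and Mitf, in percent, for each library, with the group mean as a line and the SD as a bar. The Rragd share averages 5.87% with EIPA and 3.79% with vehicle at 0.2 mM, and under 1% in both groups at 4 mM, and the Tfeb share is lowest with EIPA.

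In the folliculin complex, Flcn, the subunit whose loss causes Birt-Hogg-Dubé syndrome in humans, had 116, 113, 118, 96.3 and 96.2 TPM with EIPA, against 86.8, 87.7, 89.6, 88.9 and 96.7 TPM with vehicle at 0.2 mM glutamine. EIPA replicates 4 and 5 were the lowest of their group and met vehicle replicate 5, the highest of the vehicle libraries. At 4 mM, Flcn had 36.5, 32.0, 40.1, 37.1 and 39.7 TPM with IL-1a and 36.3, 32.7, 34.5, 39.7 and 40.4 TPM with vehicle, with neither group near the libraries at 0.2 mM. Flcn rose with EIPA by 0.26 ± 0.07 (limma adjusted p = 0.00651) and with low glutamine by 1.14 ± 0.07 relative to the median gene (limma adjusted p of the unshifted value = 3.57e-12). The Flcn gene (ENSMUSG00000032633) spans bases 59791408 to 59810016 of chromosome 11 in mm10, minus strand.

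Both partners of Flcn likewise averaged highest with EIPA, next with vehicle at 0.2 mM, and lowest in the 4 mM groups, which overlapped. Fnip1, whose promoter window held the E-box shown above, ranged from 50.1 to 57.4 TPM with EIPA and from 43.6 to 55.0 TPM with vehicle at 0.2 mM. Vehicle replicate 5 had that highest vehicle level, and the other 4 vehicle libraries reached at most 44.6 TPM. Fnip1 rose with EIPA by 0.23 ± 0.07 (limma adjusted p = 0.0113). The change was 0.29 without vehicle replicate 5, and 0.18 with the mitochondrial genes left out (limma adjusted p = 0.0417). With low glutamine Fnip1 rose by 0.85 ± 0.07 relative to the median gene (limma adjusted p of the unshifted value = 9.96e-11). Fnip2, the other partner, ranged from 27.4 to 36.2 TPM with EIPA and from 24.8 to 28.5 TPM with vehicle, where replicate 5 was again highest. It rose with EIPA by 0.33 ± 0.08 (limma adjusted p = 0.00122) and with low glutamine by 0.99 ± 0.08 relative to the median gene (limma adjusted p of the unshifted value = 4.44e-11). At 4 mM, Fnip1 ranged from 20.6 to 25.8 TPM with IL-1a and from 21.8 to 25.7 TPM with vehicle, and Fnip2 from 9.04 to 11.9 TPM and from 10.9 to 12.1 TPM in those groups. Fnip2 made up 37.9% ± 2.00 of the summed TPM of the partners with EIPA and 36.1% ± 1.23 with vehicle at 0.2 mM. At 4 mM it made up 32.0% ± 2.89 with IL-1a and 33.4% ± 1.96 with vehicle. In mm10, Fnip1 (ENSMUSG00000035992) spans bases 54438199 to 54518235 of chromosome 11, plus strand, and Fnip2 (ENSMUSG00000061175) bases 79455974 to 79567796 of chromosome 3, minus strand.

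Of the stress genes, Gpnmb, a transmembrane glycoprotein that accumulates when lysosomes are overloaded, had the largest EIPA change of the 10 genes. It had 79.0, 75.4, 72.9, 78.9 and 69.1 TPM with EIPA, against 26.4, 25.0, 24.3, 18.6 and 24.9 TPM with vehicle at 0.2 mM glutamine. At 4 mM it had 9.61, 10.2, 12.1, 7.92 and 8.07 TPM with IL-1a and 11.3, 11.0, 8.47, 7.43 and 7.99 TPM with vehicle. Every EIPA library was above every other library, the vehicle libraries at 0.2 mM were above all those at 4 mM, and the 4 mM groups overlapped. Gpnmb rose with EIPA by 1.62 ± 0.12 (log2, SE; limma adjusted p = 7.17e-10), rank 71 from the highest of 12350 genes, and the change was 1.58 both with the mitochondrial genes left out and under median-of-ratios scaling. It rose with low glutamine by 1.15 ± 0.12 relative to the median gene (limma adjusted p of the unshifted value = 3.23e-09). Gpnmb is also expressed by macrophages, whose 8 markers summed to 7.70 to 9.45 TPM with EIPA and 1.96 to 2.65 TPM with vehicle at 0.2 mM, and to 2.80 to 3.98 TPM with IL-1a and 2.53 to 3.70 TPM with vehicle in 4 mM glutamine. Most of that sum was Cd68, itself a protein of late endosomes and lysosomes, which averaged 7.85 TPM with EIPA and 2.35 TPM with vehicle. Csf1r, the receptor for a macrophage growth factor, averaged 0.510 TPM with EIPA and 0.0460 TPM with vehicle at 0.2 mM, and 1.06 TPM with IL-1a and 0.830 TPM with vehicle at 4 mM. Of the 8 markers these 2 passed the filter on low values, and both were called higher with EIPA. The defining markers Adgre1 and Tyrobp were listed at 0 in all libraries, and Ptprc reached at most 0.01 TPM. In mm10, Gpnmb (ENSMUSG00000029816) spans bases 49036546 to 49070929 of chromosome 6, plus strand.

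Sqstm1, the autophagy receptor that carries ubiquitinated cargo and is induced by NRF2 as well as by the MiT/TFE factors, was the most abundant of the 10, ranking 44 by mean TPM among all genes in the EIPA group. It had 2434, 2433, 2405, 2059 and 2259 TPM with EIPA, against 2104, 1972, 1805, 1978 and 1335 TPM with vehicle at 0.2 mM. At 4 mM it had 623, 489, 548, 580 and 649 TPM with IL-1a and 563, 584, 583, 652 and 682 TPM with vehicle. EIPA replicate 4 fell just below vehicle replicate 1, vehicle replicate 5 was far the lowest of its group, and no library at 4 mM came near those at 0.2 mM. Sqstm1 rose with EIPA by 0.35 ± 0.10 (limma adjusted p = 0.00652), and by 0.24 without vehicle replicate 5 (limma adjusted p = 0.0165). Its rise with low glutamine was larger, 1.43 ± 0.10 relative to the median gene (limma adjusted p of the unshifted value = 1.40e-11), and the unshifted change ranked 111 from the highest. The Sqstm1 gene (ENSMUSG00000015837) spans bases 50199366 to 50210827 of chromosome 11 in mm10, minus strand. It shares 580 exon bases with Mrnip on the other strand, and whether counting used the strand is not given in the sources used here, but Mrnip reached at most 14.2 TPM.

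With IL-1a, the differences of the 10 genes ran from -0.11 for Fnip2 to 0.16 for Tfe3. Apart from Tfe3, limma adjusted p was 0.999 for each. The 95% interval was -0.19 to 0.29 for Gpnmb, -0.15 to 0.31 for Rragd, -0.14 to 0.17 for Flcn and -0.30 to 0.12 for Sqstm1. For Gpnmb and Sqstm1, the interval lies below the 95% interval of the change with EIPA, 1.38 to 1.86 and 0.142 to 0.555. For Flcn the interval with EIPA, 0.105 to 0.409, overlaps that with IL-1a. These intervals therefore do not separate the Flcn responses, and the test of their difference, given below, did not call Flcn. For Rragd the interval cannot decide whether the responses differ, because adding 1 TPM shrinks changes at its low levels in these groups. With 0.1 TPM added, Rragd differed by 0.24 ± 0.18 with IL-1a and by 0.98 ± 0.18 with EIPA (SE). Without the 3 low-Ccn1 libraries and with 1 TPM added, Gpnmb differed by 0.07 and Rragd by 0.05, and again 0 of the 10 genes were called.

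Whether the 2 treatments differed in effect was tested as the EIPA response minus the IL-1a response, each against its own vehicle. These differ in glutamine as well as in agent, so agent and glutamine cannot be told apart. Of the 10 genes, 5 were called higher and 1 lower, where 28.9% of all tested genes were called, 16.3% higher and 12.6% lower (56.5% of the calls were higher, but 46.5% with the mitochondrial genes left out). The difference was 1.57 ± 0.16 for Gpnmb (limma adjusted p = 7.70e-07), 0.82 ± 0.16 for Rragd (limma adjusted p = 0.000530), 0.44 ± 0.11 for Fnip2 and 0.41 ± 0.09 for Rragc. For Rragd, adding 1 TPM shrinks changes at its low 4 mM levels more than at 0.2 mM, which can widen this difference. With 0.1 TPM added, the Rragd difference was 0.74 ± 0.26 (limma adjusted p = 0.0382). Sqstm1 stood at 0.44 ± 0.14 (limma adjusted p = 0.0241; 0.0543 with no filter on low values), and Tfeb at -0.55 ± 0.15 (limma adjusted p = 0.00777). Fnip1 (0.26 ± 0.10, limma adjusted p = 0.0584) and Flcn (0.24 ± 0.10, limma adjusted p = 0.0835) did not pass. For Fnip1 the call appeared without vehicle replicate 5 at 0.2 mM (0.32, limma adjusted p = 0.00904), without EIPA replicate 4 (limma adjusted p = 0.0425) and without IL-1a replicate 5 (limma adjusted p = 0.0196), and for Flcn without EIPA replicate 4 or 5 (limma adjusted p = 0.0454 and 0.0440).

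Other genes of the route were counted from lists written with it, also with earlier results of these data known. Set against the shares of all genes, the counts are a description and not a test. Those counts stand beside 27.4% of all tested genes called higher and 21.1% lower with EIPA, and 45.4% higher and 27.9% lower with low glutamine. Among 34 lysosomal and autophagy genes of the CLEAR network, the direct targets of Tfeb, 31 rose with EIPA, 0 fell and 3 did not pass the test, with a median change of 0.43 against 0.02 for all genes. Under median-of-ratios scaling, 27 rose and 0 fell. The largest was Gla, a galactosidase, at 53.5 ± 6.36 TPM with EIPA and 21.0 ± 1.51 TPM with vehicle (1.31 ± 0.09, limma adjusted p = 7.95e-10), followed by the protease Ctsb, at 610 ± 31.0 TPM with EIPA and 309 ± 10.7 TPM with vehicle (0.98 ± 0.07, limma adjusted p = 4.14e-10). Low glutamine split this list: 22 rose, 6 fell and 6 did not pass (19 rose and 9 fell under median-of-ratios scaling), with a median of 0.26 relative to the median gene. Sgsh, a sulfatase of heparan sulfate breakdown, fell most, by 1.34 ± 0.14 relative to the median gene, to 1.93 ± 0.313 TPM at 0.2 mM, against 5.75 ± 0.838 TPM at 4 mM. Ctsb, which rose with EIPA, stood at 309 TPM at 0.2 mM and 324 TPM at 4 mM in vehicle and was not called. With the EIPA response minus the IL-1a response, 27 of the 34 genes were higher, 0 were lower and 7 did not pass. Of all tested genes, 16.3% were called higher and 12.6% lower in that difference.

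All 7 autophagy receptors other than Sqstm1 rose with low glutamine (6 under median-of-ratios scaling), with a median of 0.76 relative to the median gene, led by Nbr1, which resembles Sqstm1 in domain plan, at 110 ± 4.38 TPM at 0.2 mM and 51.1 ± 6.24 TPM at 4 mM (0.96 ± 0.10 relative to the median gene, limma adjusted p = 1.81e-09). With EIPA, 2 of the 7 rose, 0 fell and 5 did not pass, the mitophagy receptor Bnip3l by 0.48 ± 0.09 and Optn by 0.25 ± 0.07. With only the EIPA and vehicle libraries in the fit, 5 of the 7 rose.

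Of the 10 genes that sense or repair damaged lysosomes, 4 rose with EIPA, 1 fell and 5 did not pass, a share of calls near the 48.5% of all tested genes. Lgals3, the galectin that gathers on broken lysosomes, rose by 0.66 ± 0.18, to 644 ± 84.0 TPM with EIPA, against 405 ± 23.7 TPM with vehicle, and Lgals1, another galectin, fell by 0.37 ± 0.05 on the log2 scale. With low glutamine 4 rose and 5 fell (1 and 6 under median-of-ratios scaling), and Lgals3 rose by 1.60 ± 0.18 relative to the median gene. All 8 genes of the NRF2 set, which covers the factor, its inhibitor and targets that blunt oxidative stress, rose with EIPA (6 under median-of-ratios scaling), with a median of 0.44, led by the quinone reductase Nqo1 (1.24 ± 0.27) and the thioredoxin reductase Txnrd1 (0.62 ± 0.08). With low glutamine 4 of these rose and 4 fell, and Nqo1 fell by 1.50 ± 0.27 relative to the median gene, to 23.1 ± 7.78 TPM at 0.2 mM, against 61.1 ± 20.1 TPM at 4 mM.

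Of 8 genes for RagA, RagB, the Ragulator scaffold and the arginine sensor Slc38a9, 2 rose with EIPA, the Ragulator subunits Lamtor5 (0.46 ± 0.06) and Lamtor3 (0.26 ± 0.07), while 0 fell and 6 did not pass. Rraga stood at 75.9 TPM with EIPA and 77.0 TPM with vehicle at 0.2 mM, and Rragb, the paralogue of Rraga, at 4.83 TPM in both groups. With low glutamine 5 of the 8 rose and 2 fell, where 73.3% of all tested genes were called. Lamtor3 rose by 0.97 ± 0.07 and Rragb by 0.65 ± 0.13 relative to the median gene, while Rraga fell by 0.44 ± 0.08, the reverse of what both Rragc and Rragd did. Of 9 genes of mTORC1 and its TSC control, 1 rose with EIPA, the mTOR inhibitor Deptor (0.87 ± 0.09, 3.07 ± 0.290 TPM with EIPA and 1.23 ± 0.0820 TPM with vehicle), 1 fell, the activating GTPase Rheb (-0.12 ± 0.04), and 7 did not pass. With low glutamine 3 rose and 3 fell, the TSC subunit Tbc1d7 falling by 0.79 ± 0.10 relative to the median gene.

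Of 16 genes of the GATOR complexes and amino acid sensors, 4 rose and 4 fell with EIPA and 8 did not pass, again near the 48.5% of all tested genes. Wdr24 of GATOR2 rose (0.55 ± 0.07), and Kptn, which anchors GATOR1 at the lysosome, fell (-0.68 ± 0.11). With low glutamine 7 rose and 5 fell (6 and 6 under median-of-ratios scaling), near the 73.3% called among all tested genes, and Sesn1, a sestrin that restrains mTORC1, fell by 1.39 ± 0.17 relative to the median gene. Of 10 genes that control the location or phosphorylation of Tfeb, 9 were tested, and with EIPA 1 rose, the nuclear exporter Xpo1 (0.21 ± 0.05), 3 fell, among them the calcineurin subunit Ppp3cb (-0.16 ± 0.05), and 5 did not pass. With low glutamine 5 rose and 2 fell (2 and 4 under median-of-ratios scaling), and the lysosomal calcium channel Mcoln1, which is also a CLEAR gene, rose by 0.89 ± 0.08 relative to the median gene. With IL-1a, 0 genes were called in each of these 8 lists, where 0.283% of all tested genes were called.

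**Figure D4:**
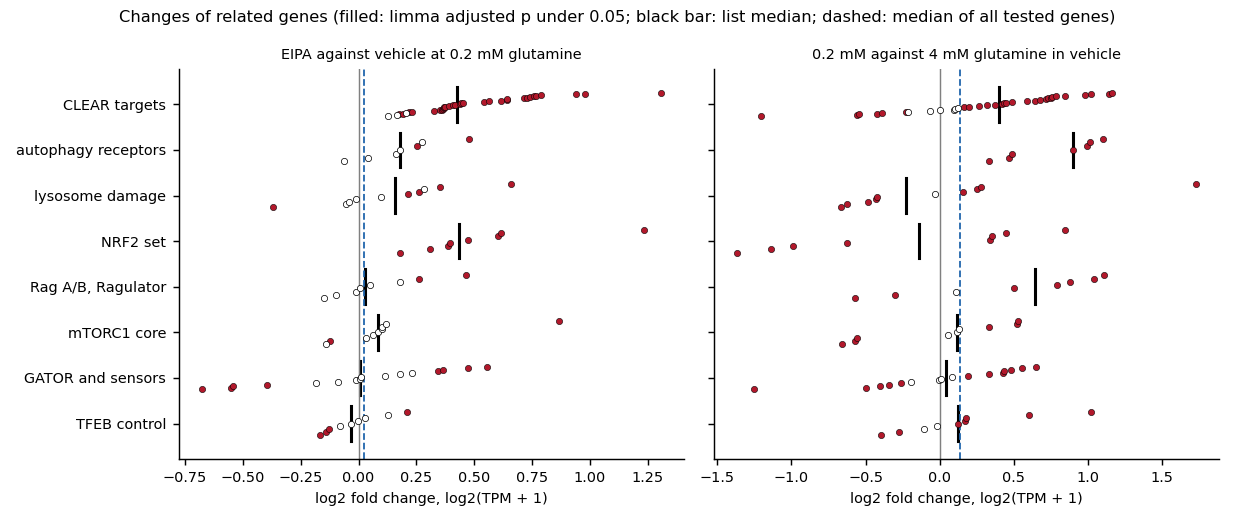
Log2 fold change, on log2(TPM + 1), of each gene of 8 related lists for EIPA over vehicle in 0.2 mM glutamine and for 0.2 mM over 4 mM glutamine in vehicle (unshifted), filled where called by limma, with the list median as a bar and the median of all tested genes dashed. With EIPA, 31 of 34 CLEAR genes and 8 of 8 NRF2 genes lie to the right as called genes, while with low glutamine all 7 autophagy receptors do. Counts for the damage and TFEB control lists with low glutamine change balance under median-of-ratios scaling.

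Among 10041 genes with a mean of at least 5 TPM, the profiles closest to Gpnmb and Rragd were found by the distance between their 4 centred group means of log2(TPM + 1). Of the profiles near Gpnmb, the second and the third nearest were Dusp4, a MAP kinase phosphatase (distance 0.364), and Maff, a small Maf factor (0.384). Dusp4 averaged 342 ± 26.7 TPM with EIPA and 142 ± 20.3 TPM with vehicle at 0.2 mM, and 44.2 ± 14.0 TPM with IL-1a and 44.2 ± 12.6 TPM with vehicle at 4 mM (SD, n = 5 each). Nearest to Rragd were Lck, a Src-family kinase (0.330), Ciart, a repressor of the circadian clock (0.366), and Ppp1r15a, a stress-induced phosphatase subunit (0.457). Ciart averaged 121 ± 11.0 TPM with EIPA and 65.7 ± 12.3 TPM with vehicle at 0.2 mM, and 6.95 ± 1.76 TPM with IL-1a and 8.49 ± 2.09 TPM with vehicle at 4 mM. Adding 1 TPM shrinks the fall of Rragd to its low levels at 4 mM, so these matches are closer on this scale than in TPM. In vehicle, Rragd averaged 7.06 TPM at 0.2 mM and 0.228 TPM at 4 mM, and Lck 13.0 and 1.89 TPM. With EIPA and with vehicle at 0.2 mM, Rragd averaged 14.0 and 7.06 TPM, and Ppp1r15a 219 and 178 TPM. Likeness over 4 group means is a description of these libraries.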

How the data were processed

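Polyadenylated RNA of cultured CAFs was sequenced as paired reads, per the labels' protocols. The deposited values are TPM that the authors computed with RSEM on mm10, per the submitters' processing notes, without versions. The aligner, like the annotation release, is not given in the sources used here. Each library sums to 1000000 TPM within rounding, so depth is unknown and no counting interval could be given.

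Libraries were grouped by title and matched to columns by library name. Genes that reached 1 TPM in 5 or more of the 20 libraries (12350 genes) were tested on log2(TPM + 1) with limma 3.58.1 (R 4.3.3), 1 model of 4 group means with a variance trend, Benjamini-Hochberg adjustment over those genes and a threshold of 0.05. The scripts were tested on simulated data. The 10 genes and all lists were chosen with earlier results of these data known. Named genes were the 10, the 2 called genes of each list with the largest EIPA change and the 1 with the largest change in each other comparison, and the 3 nearest profiles of Gpnmb and Rragd, 1 of which is not reported here. Rraga, Rragb, Cd68 and the glutamine value of Ctsb were named after their values were seen.

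Positions are from GENCODE M21 (mm10; 32158 of 32285 IDs matched) and promoters from RefSeq (GRCm38.p6). A blastn 2.17.0 search for transcripts of other genes with at least 95% identity over at least 300 bases found 1, the overlap of Sqstm1 with Mrnip (583 bases). Alternatives were a pseudocount of 0.1 TPM, no filter, a mean of at least 5 TPM, median-of-ratios scaling, mitochondrial genes left out, a fit of the groups compared, a replicate block, the 3 low-Ccn1 libraries left out, and each library left out in turn.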

Additional observations from a re-analysis of the deposited data

Results flagged for a closer look

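Within its group of 5, a library stood apart for 7 of the 40 combinations of gene and group, its gap to the nearest library being a large part of the range of the group. Chance marks about 1 in 20 such groups taken singly. The 40 combinations share the same 20 libraries and are not independent, so that rate is no test of the 7. In the group of 0.2 mM glutamine with vehicle, replicate 5 was the highest for Tfeb (16.48 TPM), Rragc (215.08 TPM), Flcn (96.7 TPM) and Fnip1 (55.02 TPM), and replicate 4 was the lowest for Gpnmb (18.63 TPM). EIPA replicate 4 was the lowest of its group for Tfeb (7.37 TPM). In the group of 4 mM glutamine with vehicle, replicate 5 was the highest for Fnip1 (25.7 TPM).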

How the results depend on the processing

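With EIPA, 8 of the 10 genes were called in each of 17 alternatives, and 5140 to 6305 genes in all (5424 to 5849 with a library left out, main 5986). With IL-1a, 0 of the 10 were called in each of 18, and 19 to 47 genes in all (27 to 47 with a library left out, main 35). The 19 came with only the groups compared in the fit, and the cause was not tested. With a library left out, uncalled IL-1a differences changed sign for Flcn (-0.0250 to 0.0647), Gpnmb (-0.0307 to 0.121), Mitf (-0.0049 to 0.113) and Fnip1 (-0.0805 to 0.0132). With low glutamine, 8 or 9 of the 10 were called in 18 alternatives, and 7608 to 9927 genes in all. Mitf was not tested at a mean of at least 5 TPM. Under median-of-ratios scaling the uncalled Tfeb change was -0.0323. For the EIPA response minus the IL-1a response, 5 to 8 of the 10 were called in 27 alternatives, and 3134 to 4000 genes in all.

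The labels do not say that replicate numbers pair the libraries, and not every same-numbered pair correlated above 0.1, so the block is an alternative here: they correlated at 0.0621 to 0.322 for EIPA, -0.281 to 0.601 for IL-1a and 0.0495 to 0.167 for glutamine, and 8, 5 and 8 of 10 libraries correlated best with their own number, a hint of pairing from the data and not the design. With the replicate block, 6305, 39 and 9230 genes were called in these comparisons and 4000 in the difference, where Fnip1 was called (0.26, limma adjusted p = 0.0250). The block changed no other call of the 10 genes. Depth is unknown, and Rragd at 4 mM glutamine (under 0.5 TPM) and Mitf rest on low levels.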
